A study of Homo sapiens with 18 samples.

Results

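The developmental transcription factors described here are 143 of the 13661 genes in the table of vehicle-treated HEK293 cells. They were picked out by a pattern on the gene symbol that reads no measured value: the HOXA to HOXD genes, the SOX, FOX, PAX, LHX, ONECUT, MEIS, TBX and POU families, and the numbered SIX-family and PBX genes, GATA1 to GATA6, EYA1 to EYA4 and IRX1 to IRX6. Of these 143 genes, 131 passed the filter on low counts and were tested among 12720 genes. The other 12 had between 2.44 and 9.78 reads per library on average and were not tested: SOX11, SOX30, FOXC2, FOXP3, FOXQ1, TBX6, TBX15, TBX20, TBX21, ONECUT3, GATA5 and FOXL2NB. FOXL2NB fits the symbol pattern as the neighbour of a FOX gene and is not itself a FOX factor.

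Homeobox genes encode proteins that bind DNA through a homeodomain. The HOX genes stand in 4 clusters, HOXA on chromosome 7, HOXB on chromosome 17, HOXC on chromosome 12 and HOXD on chromosome 2, and paralogs that occupy the same place in different clusters carry the same number. Low-numbered HOX genes pattern the head and hindbrain and high-numbered ones the trunk, limbs and urogenital tract. MEIS and PBX proteins are homeodomain partners of HOX proteins, and PAX, SIX-family and EYA proteins act together in kidney and sense organ development. SOX, FOX, TBX and GATA proteins bind DNA through an HMG box, a forkhead domain, a T-box and zinc fingers. An mRNA that carries more ribosomes runs further into a sucrose gradient, so the position of these mRNAs is a measure of how they are loaded for translation.

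HEK293 is an established line of human embryonic kidney cells. The cells had received DMSO, the vehicle, for 12 h, and a cytoplasmic lysate of each of 3 biological replicates was separated on a gradient into monosomes (mRNAs with 1 ribosome), light polysomes and heavy polysomes. That gave 9 libraries, 3 per fraction. Libraries of cells given 100 µM minocycline are not analysed here. Libraries held 13447139 to 24441159 reads, and the 143 genes took 0.194% to 0.390% of them. All 7 markers chosen for HEK293 (KRT8, KRT18, VIM, INA, NEFL, NEFM and UCHL1) had values, summing to 7797 to 21671 normalized counts per library, whereas of 3 markers each of leukocytes, endothelium, fibroblasts and hepatocytes only COL1A1 and APOA1 had values, with means of 54.5 and 18.2. Light polysome library 2 stood apart: across genes it correlated on average at 0.894 with light polysome libraries 1 and 3, which correlated at 0.985 with each other, and at 0.940 with the heavy polysome libraries (Pearson r over the 12720 genes on the log2 scale). A lysate of many cells gives an average, in which fewer cells holding an mRNA and less of it per cell cannot be told apart. The normalization scales every fraction to the same typical gene, so shares and ribosome loads below are relative to other mRNAs and say nothing of total RNA.

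The bases around the start codon are where a scanning ribosome begins translation, and they are shown for the mRNAs at both ends of the distribution and for the HOX group 4 paralogs, whose start sites are alike. Each line runs from 9 bases before the start codon to base 6 of the coding sequence, 5′ to 3′, with the start codon in capitals. The sequences are those of GENCODE release 29 transcripts on GRCh38.
HOXB2: ttgaaagccATGaat
POU3F2: ccgagagtcATGgcg
FOXN2: taagagtaaATGggt
LHX4: cgctccgagATGatg
POU4F1: gccgccacgATGatg
SIX4: caacaaaaaATGtcc
EYA2: tacaaggaaATGgta
IRX5: tgtgtggccATGtcc
SOX18: ccagctggaATGcag
IRX3: cgggccaccATGtcc
POU2F1: atattcaaaATGgcg
HOXA4: cacaaattaATGacc
HOXB4: cagaaattaATGgct
HOXC4: cagaaattaATGatc
HOXD4: ctgaaattaATGgtc

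As a group these mRNAs sat nearer the top of the gradient than other mRNAs, and few of them were concentrated in heavy polysomes. Position was summarised by the mean ribosome load (MRL), a score that weights a gene's share in monosomes by 1, in light polysomes by 2.5 and in heavy polysomes by 6. The 131 genes had a median MRL of 2.97, against 3.21 for the 12720 genes tested. The median of the group was 3.04, 2.95 and 2.95 in gradients 1, 2 and 3, where the median of all genes was 3.17, 3.17 and 3.16. The middle of the group was thus below that of all genes in each of the 3 gradients.

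Fewer of these genes than of all genes were called higher in heavy polysomes than in monosomes. A gene was called when limma's two-sided test gave a Benjamini-Hochberg adjusted p under 0.05 over the 12720 genes. In heavy polysomes over monosomes 52 of 131 genes were called in either direction, against 49.1% of all genes. Of these, 13 of 131 (9.92%) were higher, against 24.7% of all genes tested, and 39 (29.8%) were lower, against 24.4% of all genes. Against the median gene, MRL was higher for 12 (9.16%), where 22.0% of all genes were, and lower for 38 (29%), where 24.7% of all genes were. In light polysomes over monosomes 6 genes were higher and 22 (16.8%) lower, with 8.47% and 10.2% of all genes called. In heavy over light polysomes 16 (12.2%) were higher and 25 (19.1%) lower, close to the 14.7% and 17.5% of all genes. The share of lower calls was near that of all genes in every comparison except light over monosomes, and the shortfall lay in the higher calls of the comparisons with monosomes and of MRL. For light over monosomes that shortfall was not seen without light polysome library 2. In the authors' deposited table the strict class was given as follows: 19 of the 131 genes had the strict monosome class (12.2% of all genes tested had it), 5 the light polysome class (3.94%), 7 the heavy polysome class (13.0%) and 100 no class (70.9%). The numbers of calls depended on single gradients, in the group as in the whole table. Heavy over monosomes gave 4 higher and 21 lower without replicate 1, where 9.99% and 14.7% of all genes were called. It gave 6 and 22 without replicate 3, with 13.8% and 17.3% of all genes, and 22 and 46 without light polysome library 2, with 29.3% and 27.3% of all genes. None of the 41 heavy over light calls (32.2% of all genes were called) remained without replicate 1 or without replicate 3, where limma called 0 and 1 of all 12720 genes; at an unadjusted p under 0.05 it had 9 higher and 21 lower of the 131 without replicate 1, and 9 and 23 without replicate 3. Without replicate 2 it called 35 higher and 39 lower, with 29.9% and 30.2% of all genes.

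**Figure D1:**
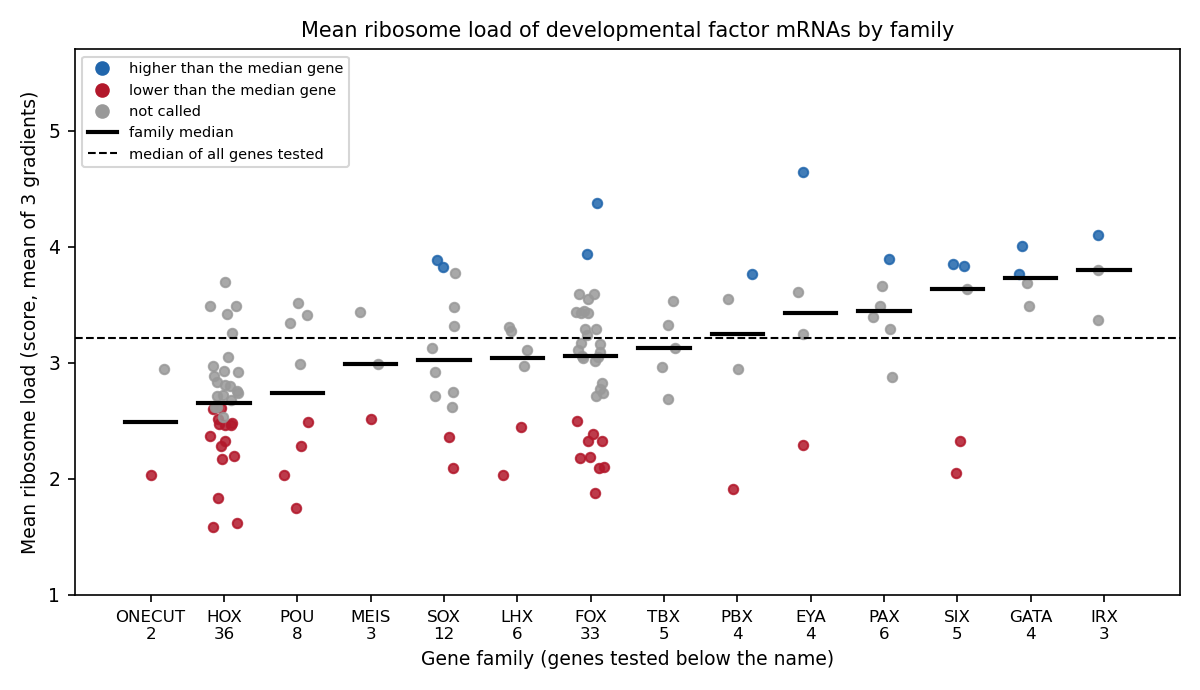
Mean ribosome load (score, mean of 3 gradients) of the 131 genes tested, by family, with families ordered by their median (bar) and the median of all genes tested as the dashed line at 3.21. Points are genes, blue where the load was higher and red where it was lower than that of the median gene by limma, and the HOX column holds 15 red and 0 blue points.

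Among the genes with at least 100 reads per library on average, the 6 lowest calls of heavy over monosomes were HOXB2, POU3F2, FOXN2, SIX4, LHX4 and POU4F1. HOXB2 (ENSG00000173917, GRCh38 chromosome 17, 48540894 to 48544989, minus strand), a hindbrain patterning factor, had 705, 834 and 1439 normalized counts in monosome libraries 1, 2 and 3. It had 227, 224 and 296 in light and 62.2, 81.3 and 76.7 in heavy polysomes. Its values thus fell at each step down the gradient, with no overlap between fractions, and heavy over monosomes was -3.68 on the log2 scale (SE 0.33, limma adjusted p = 8.03e-06). POU3F2 (chromosome 6, 98834592 to 98839470, plus strand) is a neural POU-homeodomain factor encoded by 1 exon. It had 1966, 1471 and 1056 normalized counts in monosomes, 148, 67.8 and 107 in light and 260.2, 171 and 264 in heavy polysomes. Its light polysome values were the lowest of the 3 fractions in every gradient, with light over monosomes at -3.81 (SE 0.37, adjusted p = 4.05e-05) and heavy over monosomes at -2.67 (SE 0.37, adjusted p = 0.000127).

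FOXN2, a forkhead factor on chromosome 2 (48314637 to 48379294), had 1583, 1592 and 1347 normalized counts in monosomes, 231, 305 and 397 in light and 250.4, 306 and 268 in heavy polysomes. Light and heavy polysome values overlapped and lay far below the monosome values, with heavy over monosomes at -2.45 (SE 0.31, limma adjusted p = 7.51e-05). POU4F1, a factor of sensory neurons on chromosome 13 (78598362 to 78603560), had 2508, 2324 and 2756 in monosomes, 564, 418 and 643 in light and 658, 618 and 496 in heavy polysomes. SIX4, a SIX-homeodomain factor on chromosome 14 (60709528 to 60724348), had 968, 533 and 1037 in monosomes, 189, 159 and 233 in light and 170.2, 238 and 146 in heavy polysomes. LHX4, a LIM-homeodomain factor of pituitary development on chromosome 1 (180230286 to 180278982), had 403, 237 and 367 in monosomes, 79.5, 67.1 and 85.8 in light and 86.7, 69.1 and 71.5 in heavy polysomes. In each of these genes every polysome value lay below every monosome value, while light and heavy values overlapped. Heavy over monosomes was -2.10 for POU4F1 (adjusted p = 0.000203), -2.16 for SIX4 (adjusted p = 0.000313) and -2.10 for LHX4 (adjusted p = 0.00023). All 6 calls of heavy over monosomes were also made in each of the 11 alternative analyses. LHX4 and POU4F1 share 32.1% and 27.7% of their exon bases with antisense genes (ACBD6 and AL445209.1), and whether reads were counted by strand is not given in the sources used here.

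At the other end were FOXK1, EYA2, POU2F1, SOX18, IRX5 and IRX3. FOXK1 (ENSG00000164916, chromosome 7, 4682309 to 4771443, plus strand), a forkhead repressor of metabolic and autophagy genes, had 97.0, 171 and 79.1 normalized counts in monosomes, 316, 386 and 265 in light and 652, 542 and 620.2 in heavy polysomes. The 3 fractions did not overlap and rose step by step, with heavy over monosomes at 2.45 (SE 0.34, limma adjusted p = 0.000127). EYA2 (chromosome 20, 46894624 to 47188844, plus strand), a phosphatase and coactivator of SIX-family proteins, had 71.2, 114 and 59.7 in monosomes, 72.9, 242 and 64.2 in light and 408, 407 and 346 in heavy polysomes. Its heavy polysome values were above all others and its light values were close to the monosome values except in library 2, with heavy over monosomes at 2.28 (SE 0.45, adjusted p = 0.00119). EYA2 had the highest MRL of the 131 genes, 4.64 ± 0.43 (SD, n = 3). POU2F1, the widely expressed octamer-binding factor OCT1, instead peaked in light polysomes. It had 329.9, 142 and 265 in monosomes, 1568, 786 and 1466 in light and 719, 714 and 726 in heavy polysomes. Light over monosomes was 2.39 (SE 0.38, adjusted p = 0.000977) and heavy over monosomes 1.63 (SE 0.38, adjusted p = 0.0031), and the FOXK1, EYA2 and POU2F1 calls of heavy over monosomes were made in each of the 11 alternatives.

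SOX18, a factor of blood and lymph vessels, had 108, 73.4 and 108 normalized counts in monosomes, 177, 217 and 108 in light and 399, 143 and 233 in heavy polysomes. IRX5 and IRX3, Iroquois homeodomain factors that both lie on chromosome 16, were also highest in heavy polysomes in 2 of the 3 gradients or more. IRX5 had 151, 82.9 and 82.3 in monosomes, 83.9, 142 and 77.6 in light and 345, 195 and 236 in heavy polysomes. IRX3 had 272, 168 and 334 in monosomes, 343, 940.2 and 270.2 in light and 1019, 409 and 521 in heavy polysomes. Every heavy polysome value of these genes was above every monosome value, and in gradient 2 the light polysome value of SOX18 and IRX3 was the highest of the 3. Heavy over monosomes was 1.31 for SOX18 (SE 0.40, limma adjusted p = 0.0152), 1.31 for IRX5 (SE 0.37, adjusted p = 0.0105) and 1.27 for IRX3 (SE 0.47, adjusted p = 0.0382). Without replicate 1 the adjusted p was 0.167 for SOX18, 0.0617 for IRX5 and 0.242 for IRX3, and without replicate 3 it was 0.0532 for SOX18 and 0.0942 for IRX5.

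**Figure D2:**
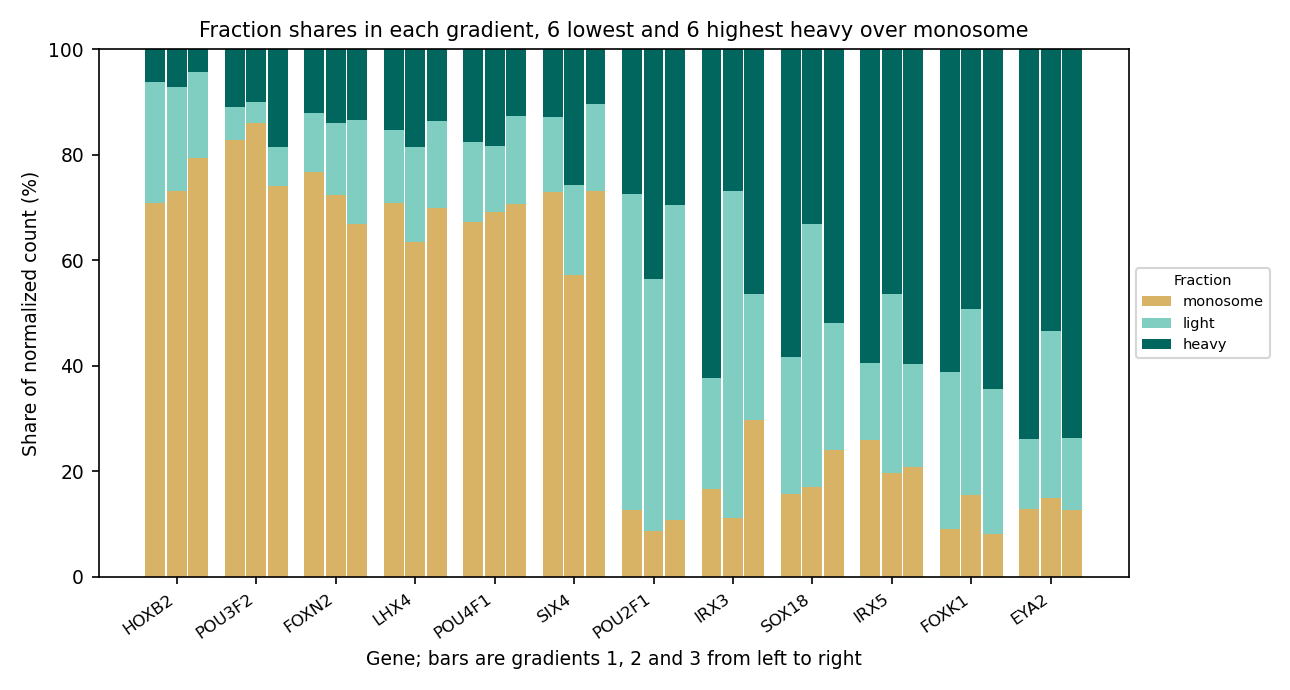
Share of the normalized count (%) in monosomes, light and heavy polysomes for the 6 lowest and 6 highest calls of heavy over monosomes with at least 100 reads on average; the 3 bars of a gene are gradients 1, 2 and 3. The first 6 genes have 57.3% or more in monosomes in every gradient, and gradient 2 of EYA2, SOX18 and IRX3 has more in light polysomes than their other gradients.

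HOX mRNAs made up the largest family and had a low load, with a small share in heavy polysomes. Their median MRL was 2.65 over the 36 genes tested, with 2.67, 2.70 and 2.62 in the 3 gradients. By MRL 15 of the 36 were lower than the median gene and 0 were higher, against 24.7% and 22.0% of all genes, with 1 higher and 20 lower at an unadjusted p under 0.05. In heavy over monosomes 14 were lower and 1 was higher, against 24.4% and 24.7% of all genes. In heavy over light polysomes 15 were lower, against 17.5% of all genes, none of which was called without replicate 1 or without replicate 3. In light over monosomes 3 were lower, against 10.2% of all genes, and the median difference was 0.01 on the log2 scale. The median share of the family in heavy polysomes was 21.4% against 33.8% for all genes, and its median share in light polysomes was 38.5% against 30.8%. HOX genes had a median of 2 exons. Among all genes tested, the 618 genes of 2 exons had a median MRL of 2.70, with 44.8% lower and 8.74% higher. Their median shares were 22.9% in heavy and 30.1% in light polysomes, so the low load and the small heavy share were not particular to HOX genes. Without replicates 1, 2 and 3 the number lower by MRL was 9, 18 and 11, where 2164, 3566 and 2952 of all 12720 genes were lower, and the number higher was 0, 1 and 0.

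Pooled over the 4 clusters, the genes of paralog groups 1 to 4 had the lowest median load, though not within every cluster. Their median MRL was 2.33 over 11 genes, of which 8 were lower than the median gene, where 24.7% of all genes were. Groups 5 to 8 had 2.73 (2 of 10 lower) and groups 9 to 13 had 2.75 (5 of 15 lower), shares near that of all genes. Median reads per library were 108 in groups 1 to 4, 316 in groups 5 to 8 and 391 in groups 9 to 13. The 8 lower genes include HOXD4, from few reads, and HOXA4, whose MRL call was made in 2 of 7 alternatives. In HOXC the lowest was HOXC10 (2.28), in HOXD the highest was HOXD3 (2.92), and in HOXB the highest was HOXB4 (3.70). HOXB2 had 1.59 ± 0.11 (SD, n = 3), the lowest MRL of all 131 genes, and its paralog HOXA2, a regulator of hindbrain and neural crest, had 1.83 ± 0.27. Leaving out replicates 1, 2 and 3 left 7, 8 and 6 of the 11 genes of groups 1 to 4 lower, against 1, 4 and 1 of groups 5 to 8 and 1, 6 and 4 of groups 9 to 13. Across the 36 genes MRL rose with the paralog number (Spearman rho 0.41, as a description across genes that share libraries), with 0.24, 0.38 and 0.57 in gradients 1, 2 and 3. The relation differed by cluster, with rho of 0.84 over 11 HOXA genes, 0.50 over 9 HOXB genes, 0.19 over 8 HOXC genes and -0.26 over 8 HOXD genes. All 8 HOXD genes lay below the median of all genes, and HOXD13, a limb and digit factor, had 2.46 ± 0.10 with 54.1% of its normalized count in light polysomes. HOXA9 and HOXB9, trunk and limb factors with high normalized counts in this family, had 2.47 ± 0.31 and 2.75 ± 0.06, and HOXA10 had 2.92 ± 0.24.

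**Figure D3:**
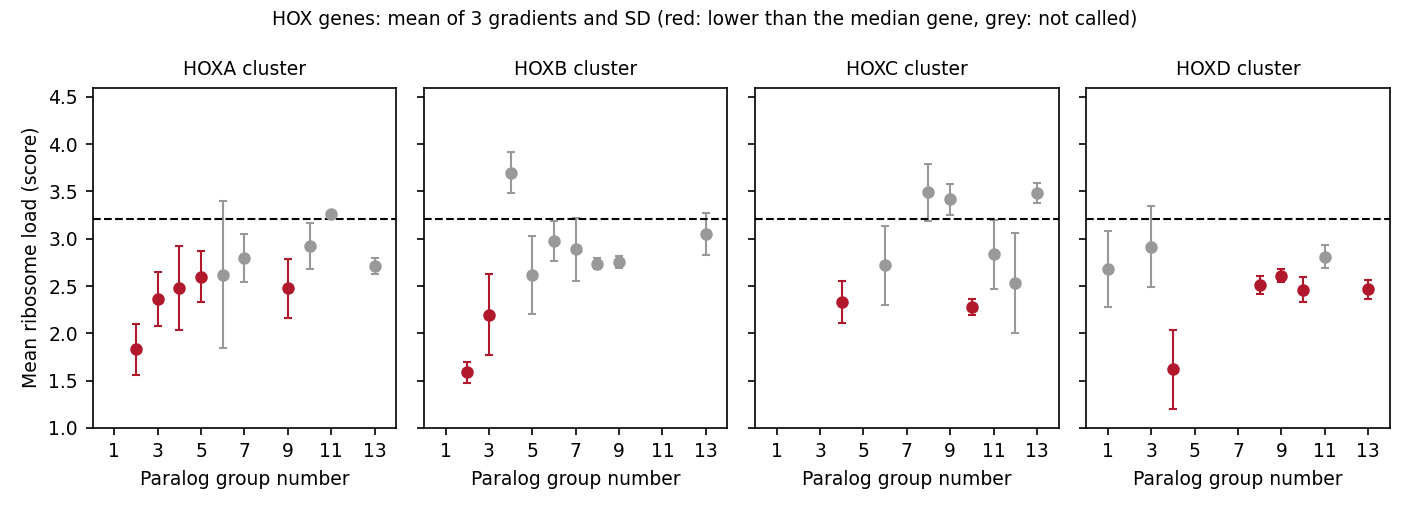
Mean ribosome load (score) of the HOX genes tested, apart from 1 gene not reported here, against their paralog group number, with a panel for each cluster; points are means and bars the SD over 3 gradients, and the dashed line is the median of all genes tested at 3.21. Red points, lower than the median gene by limma, include HOXA2, HOXB2 and HOXB3, whereas HOXB4 lies at 3.70.

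The HOX group 4 paralogs had similar start sites and unlike positions in the gradient. In the sequences printed above they share 10 of 15 bases. HOXB4, a factor of blood stem cells, had 45.3, 33.2 and 48.4 normalized counts in monosomes, 65.6, 56.6 and 52.3 in light and 102, 74.1 and 66.3 in heavy polysomes, and an MRL of 3.70 ± 0.21 (SD, n = 3). HOXC4 had 448, 369.6 and 823 in monosomes, 568, 426 and 522 in light and 146, 167 and 175 in heavy polysomes, and an MRL of 2.33 ± 0.22. The heavy polysome values of HOXC4 were below all its others, whereas those of HOXB4 were above all its others. HOXA4 had 188, 90.03 and 173 in monosomes and 43.4, 69.6 and 54.3 in heavy polysomes, and an MRL of 2.48 ± 0.45. Heavy over monosomes was 0.91 for HOXB4 (SE 0.35, limma adjusted p = 0.0423), -1.66 for HOXC4 (adjusted p = 0.00142) and -1.37 for HOXA4 (adjusted p = 0.0135); the differences between paralogs were not tested. The HOXB4 call was lost without replicate 1, 2 or 3 (adjusted p = 0.311, 0.0569 and 0.137) and by edgeR (0.0536) and DESeq2 (0.0637), and the HOXA4 call without replicate 1 or 3. HOXD4 had an MRL of 1.62 ± 0.42 from 10.9 reads per library, and 80.5% of its exon bases are shared with the gene AC009336.2, so its reads cannot be assigned with certainty. HOXA4 shares 47.3% of its exon bases with other genes and HOXB4 17.1%.

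FOX factors were the next largest family, with 33 genes tested and a median MRL of 3.06. By MRL 9 of the 33 were lower than the median gene, near the 24.7% of all genes, and 2 were higher, against 22.0% of all genes. The higher genes were FOXK1 (4.38 ± 0.34, SD, n = 3) and FOXJ2 (3.94 ± 0.19), and the FOXJ2 call was lost without replicate 1 (limma adjusted p = 0.110) and on the summed share of both polysome fractions (0.952). FOXN2 was the lowest at 1.88 ± 0.10. FOXM1, which drives cell cycle genes, shares 22.4% of its exon bases with ITFG2 on the other strand and had the second highest normalized count of the family, had 2.33 ± 0.15 and was lower, with 47.1% of its normalized count in monosomes and 15.2% in heavy polysomes. FOXC1, a mesenchymal factor with the highest count in the family, had 2.77 ± 0.06 and was not called. FOXF2 had 3.02 ± 0.17 and FOXD1, a factor of kidney stroma, 3.44 ± 0.03, neither of them called. FOXO3, a target of insulin signalling, had 3.59 ± 0.41, was not called, and shares 22.9% of its sequence in stretches of 75 bases with other genes, FOXO3B among them. The 4 genes FOXD4, FOXD4L1, FOXD4L3 and FOXD4L6, all lower by MRL, are near-identical copies that share between 39.1% and 93.8% of their sequence in such stretches with other genes, so they do not count as separate observations. The 9 lower FOX genes and the counts of calls over the 131 genes, also by exon number, still hold each copy as 1 gene.

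SOX and POU factors included abundant mRNAs found mainly in monosomes. Of 12 SOX genes, with a median MRL of 3.02, 2 were lower and 2 higher than the median gene, where 24.7% and 22.0% of all genes were. SOX4, a factor of progenitor cells, had the highest normalized count of all 131 genes and took 20777, 11139.7 and 15436 in monosomes, 2226, 2781 and 2369 in light and 5928, 3018 and 3636 in heavy polysomes. Every monosome value exceeded every polysome value, and heavy over monosomes was -1.93 (SE 0.41, limma adjusted p = 0.00198), with an MRL of 2.10 ± 0.07 (SD, n = 3). SOX12, a relative of SOX4, had 2.62 ± 0.36 and was not called, and SOX18 and SOX13 were the higher genes, at 3.89 ± 0.45 and 3.82 ± 0.19. Of 8 POU genes, with a median of 2.74, 4 were lower (POU3F2, POU4F1, POU6F1 and POU3F3) and 0 higher, against the same shares of all genes. At an unadjusted p under 0.05, 0 were higher as well. The POU genes ranged from 1.75 for POU3F2 to 3.51 for POU2F1.

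PAX, EYA, GATA, IRX and SIX-family factors had family medians of 3.44, 3.43, 3.73, 3.79 and 3.64, above the 3.21 of all genes. Each of these families had 6 or fewer genes tested, and no family was tested as such. By MRL 1 of 6 PAX genes was higher and 0 lower, with 1 and 1 of 4 EYA genes, 2 and 0 of 4 GATA genes, 1 and 0 of 3 IRX genes and 2 and 2 of 5 SIX-family genes. Of all genes 22.0% were higher and 24.7% lower. Among genes with at least 100 reads the median difference from the median gene was -0.11 for 4 SIX-family genes, against 0.19 over all 5, and without replicate 1 the SIX-family genes had 0 higher and 2 lower. Of the 4 GATA genes, GATA4 (4.004 ± 0.21, SD, n = 3) and GATA6 (3.77 ± 0.16), factors of heart and endoderm, were higher than the median gene, and GATA3 (3.69 ± 0.41) and GATA2 (3.48 ± 0.31) were not called. Heavy over monosomes was 1.23 for GATA4 (SE 0.29, limma adjusted p = 0.00376) and 0.89 for GATA6 (SE 0.29, adjusted p = 0.0200). SIX5 had 3.83 ± 0.21 and was higher, whereas SIX4 (2.05 ± 0.42) and SIX2 (2.33 ± 0.10), a factor of nephron progenitors, were lower. SIX5 shares 63.6% of its exon bases with antisense genes. The EYA coactivators were spread widely: EYA2 at 4.64 and EYA1, a kidney factor, at 3.61 ± 0.08, EYA4 at 3.25 ± 0.49 and EYA3 at 2.29 ± 0.20, of which EYA2 was higher, EYA3 lower and the others not called. Among 6 PAX genes PAX7 (3.90 ± 0.35) was higher, and the kidney factor PAX2 (3.49 ± 0.65) and PAX1 (2.87 ± 0.10) were not called. IRX5 (4.10 ± 0.24) was higher, IRX3 (3.79 ± 0.59) was not called by MRL, and IRX6, at 3.36 ± 1.23, was the only one of the 131 genes whose SD exceeded 1, from 2.02, 3.63 and 4.44 in the 3 gradients. Without replicate 1 the MRL calls of GATA6, SIX5 and PAX7 had adjusted p values of 0.171, 0.293 and 0.105, and without replicate 3 of 0.184, 0.0982 and 0.230. The GATA4 call had 0.0686 without replicate 3 and the IRX5 call 0.0632 without replicate 1. Of the 12 higher MRL calls in all families, those of EYA2 and FOXK1 were the only ones made in each of the 7 alternative analyses of MRL.

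The partners of HOX proteins within these families did not move as one. PBX4 was lower (1.92 ± 0.21, SD, n = 3), with 67.8% of its normalized count in monosomes, while PBX2 (3.55 ± 0.32) and PBX3 (2.95 ± 0.57) were not called. MEIS3 was lower (2.51 ± 0.21), a call lost without replicate 1 (limma adjusted p = 0.106) and on the summed share of both polysome fractions (0.755), and MEIS1 (2.99 ± 0.16) and MEIS2 (3.43 ± 0.16) were not called. Of 6 LHX genes LHX4 and LHX2 were lower, the LHX2 call being lost without replicate 3 (adjusted p = 0.126) and on the summed share (0.290). LHX1, a marker of the forming nephron, had 3.27 ± 0.28 and LHX9 3.31 ± 0.30, neither called. ONECUT1 was lower (2.03 ± 0.49, from few reads) and ONECUT2 was not called (2.95 ± 0.03). Of 5 TBX genes limma called 0 by MRL, with 0 at an unadjusted p under 0.05 in either direction, and they ranged from TBX3 (2.69 ± 0.58) to TBX2 (3.53 ± 0.06).

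A single score hid opposite distributions, because a gene with both monosome and heavy polysome signal and a gene in light polysomes can have the same MRL. SOX2, the pluripotency and neural progenitor factor, had 1050.1, 630.2 and 407 normalized counts in monosomes, 166, 109 and 128 in light and 621, 248 and 459 in heavy polysomes. ONECUT2, a liver and neural factor, had 233, 187 and 316 in monosomes, 2324, 1036 and 1943 in light and 462, 280.0 and 499.6 in heavy polysomes. The light polysome values of SOX2 were thus below all its others and those of ONECUT2 above all its others, while their MRL was 2.92 ± 0.55 and 2.95 ± 0.03 (SD, n = 3). Light over monosomes was -2.28 for SOX2 (SE 0.41, limma adjusted p = 0.00211) and 2.80 for ONECUT2 (SE 0.38, adjusted p = 0.000397), and both calls were made in each of the 11 alternatives. Light polysomes held under 20% of the normalized count for 27 of the 131 genes (20.6%, against 12.2% of all genes tested), with the lowest shares in POU3F2 (5.91%), SOX2 (10.98%), SOX4 (11.7%) and TBX3 (11.8%). They held over 50% for 9 genes (6.87%, against 5.60%), led by ONECUT2 (72.1%), POU2F1 (55.8%), FOXN3 (55.7%) and POU2F2 (55.5%). The light polysome share was the lowest of the 3 in every gradient for 24 genes (18.3%, against 8.33% of all genes). Over gradients 1 and 3 alone, a comparison added after seeing the data, these shares were 23.7% and 21.0%, so the gap between the group and all genes was smaller without gradient 2, which holds the library that stood apart. In gradient 2 the shares were 32.1% and 22.1%, and in gradients 1 and 3 they were 33.6% in both for the group and 29.8% and 28.1% for all genes.

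**Figure D4:**
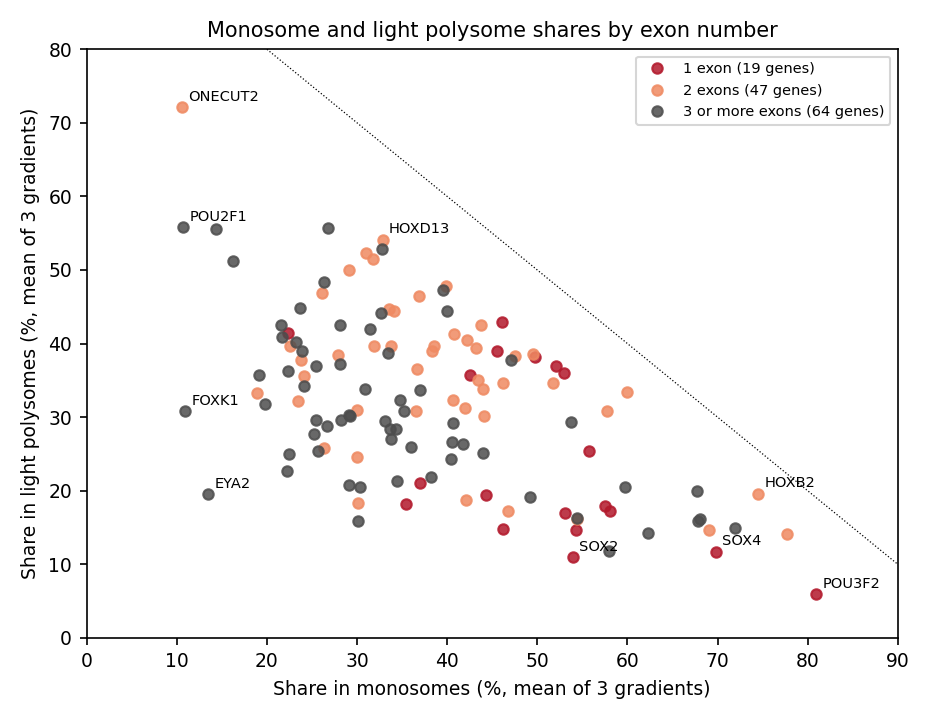
Mean share in light polysomes (%) against mean share in monosomes (%) for the 130 genes tested with a gene model, coloured by the number of exons of the transcript used; the dotted line marks where heavy polysomes would hold nothing. Genes of 1 exon have medians of 52.1% in monosomes and 19.4% in light polysomes, and POU3F2 among them has 81.0% and 5.91%.

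These genes shared features that the choice by symbol did not use. In GENCODE release 29, 66 of the 130 tested genes with a gene model (50.8%) had 1 or 2 exons in the transcript used, against 7.37% of all genes tested. Their median coding GC content was 63.5%, against 52.3%, and their median coding length 1293 bases, against 1404. Position in the gradient followed exon number within the group. The 19 genes of 1 exon had a median MRL of 2.497, the 47 genes of 2 exons 2.74 and the 64 genes of 3 or more exons 3.29. All genes tested showed medians of 2.60 for 319 genes of 1 exon, 2.70 for 618 genes of 2 exons and 3.25 for 11778 genes of 3 or more. The median MRL of the group was thus close to that of all genes in each class, but the shares of genes called were not all close. Genes of 1 or 2 exons were lower by MRL in 40.9% and higher in 3.03% of cases in the group, against 46.2% and 7.47% of all such genes. With 3 or more exons, 17.2% were lower and 15.6% higher, against 22.9% and 23.2%. Without replicate 2 the shares higher were 12.1% and 14.1% with 1 or 2 exons and 20.3% and 30.3% with 3 or more. The rank correlation of MRL with exon number was 0.39 over the 130 genes and 0.34 over 12715 genes, and with coding GC content 0.01 and -0.05 (Spearman, across genes that share libraries).

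Shares in the fractions also differed by exon number. In the group the median light polysome share was 19.4% for genes of 1 exon, 36.5% for 2 exons and 29.6% for 3 or more, and the median monosome share was 52.1%, 38.3% and 31.2%. Among all genes the median light polysome share of these classes was 24.2%, 30.1% and 31.0%. The median heavy polysome share was 24.6% for genes of 1 exon, which include SOX2, SOX4, POU3F2 and FOXC1, and 21.7% for genes of 2 exons, among them most HOX genes, against 23.4% and 22.9% of all genes of these classes. By these medians both classes were below the 33.8% of all genes in heavy polysomes, and the genes of 1 exon were low in light polysomes as well. The genes of 1 exon were not alike: in heavy over light polysomes 4 of 19 were higher and 4 lower, against 14.7% and 17.5% of all genes. The part of exon number in these positions was not tested.

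The start site differed from that of other genes as well. Translation starts most readily at an ATG with A or G at position -3 and G at position 4, counting the A of the start codon as 1. Of the 125 tested genes with at least 9 bases before the start codon, 26 (20.8%) had both, against 45.7% of 12378 genes, and 45 (36.0%) had C or T at position -3, against 13.8%. HOX genes had both in 8.82% and FOX genes in 13.3% of cases. The median MRL was 3.37 for the 26 genes with both, 2.82 for the 54 with A or G at position -3 alone and 2.95 for the 45 with C or T there. Among all genes these medians were 3.23, 3.24 and 3.06. The classes also differed in exon number in the group, with medians of 4.5, 2 and 3 exons, against 9 in each class of all genes. The part of the start site in these positions was not tested. POU genes had both in 71.4% of 7 genes. A match to these letters is a description of the annotated transcript, not a measure of initiation.

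Genes that work with these factors had a median load slightly above that of all genes. Of 26 genes of a list of partners and cofactors 25 were tested, with a median MRL of 3.35, and 7 were higher and 4 lower than the median gene by limma, against 22.0% and 24.7% of all genes. The higher ones included TLE3, a Groucho corepressor (4.55 ± 0.14, SD, n = 3), GMNN, a replication inhibitor that also binds homeodomain proteins (4.09 ± 0.27), and SSBP3, a partner of LDB1 in LIM-homeodomain complexes (4.03 ± 0.49). The lower ones included SSBP4 (1.86 ± 0.23), TLE2 (2.21 ± 0.37) and LMO1 (2.498 ± 0.15), so the TLE and SSBP families each had members at both ends. Among 63 tested homeobox genes outside the families chosen here the median MRL was 3.20. Of these, 6 were higher and 14 lower, against 22.0% and 24.7% of all genes, so higher calls were few there as well. HESX1 (1.55 ± 0.18), HOPX (1.85 ± 0.20) and BARX1 (1.86 ± 0.38) had the lowest loads. The highest were DLX3 (4.36 ± 1.17), which was called, and PDX1 (3.96 ± 0.78, limma adjusted p = 0.0605) and PRRX1 (3.96 ± 0.80, adjusted p = 0.0670), which were not, from 16.3, 43.1 and 27.8 reads per library. Among 39 polycomb and trithorax regulators, which hold developmental genes off or on, the median was 3.32, and 7 were higher and 9 lower, against the same shares of all genes.

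Reads of some of these genes cannot be separated from those of a neighbour or copy. Of the 131 genes tested, 33 share at least 10% of their exon bases with another gene or of their sequence in stretches of 75 bases, the read length, or have no gene model, and 18 share at least 10% with a gene on the opposite strand. PAX6, a factor of eye and brain, shares 75.1% with ELP4 on the other strand. Over the 98 genes that share less, a count added after seeing the data, 10 were higher and 27 lower by MRL, and the median MRL was 2.98. FOXN3, POU2F2, POU3F3, POU6F1, LHX2, SIX2, PAX6, HOXA4, HOXC4, HOXC10, HOXD3 and the FOXD4 copies were named after their values were seen.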

How the data were processed

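RNA of 9 vehicle libraries, 3 gradients of 3 fractions, was analysed. The signal values are counts divided by size factors (normalized counts) as deposited by the authors, made with featureCounts on GRCh38 per the submitters' processing notes; for the aligner, counting options and strand setting the sources used here give nothing. Whole reads were recovered from 100% of the values within 0.01 reads. The percent in each fraction and the mean ribosome load score deposited by the authors were recomputed from the normalized counts, with weights of 1, 2.5 and 6 for monosomes, light and heavy polysomes, and differed by at most 5.5e-08 and 2.18e-09. Spike-in RNA was not used. Replicates are biological per the series' design text.

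Genes with at least 10 recovered reads per library on average and reads in each gradient were kept (12720 of 13661). Fractions were compared with limma 3.58.1 (R 4.3.3) on log2(normalized count + 1), so differences between low values are understated. Mean ribosome load was tested as its log2 value minus that of the median gene of each gradient, over 3 gradients. Calls used Benjamini-Hochberg adjusted p under 0.05 over all genes tested. The fits were also run on simulated counts with known changes in heavy polysomes. Those counts held no library that stood apart and no correlation within a replicate number, so they do not test the fits for these. The alternatives were a replicate block, other pseudocounts and filters, edgeR 4.0.16 and DESeq2 1.42.0 on recovered reads, other forms of the load, and leaving out each replicate or light polysome library 2. Others were chosen after seeing the data and are named where used.

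Labels number the replicates of each of the 3 fractions, and the deposited percents are taken within a number, so numbers pair the samples. The main comparison of fractions had no term for the replicate and did not use this pairing. The replicate block is the alternative that does. Over all genes, deviations from the fraction means correlated between monosomes and light polysomes, monosomes and heavy polysomes, and light and heavy polysomes at 0.14, 0.10 and 0.09 for number 1, 0.13, -0.14 and 0.20 for number 2, and -0.05, -0.54 and 0.39 for number 3.

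Exon number, coding sequence and start site came from 1 GENCODE release 29 transcript per gene, protein-coding and in the basic set, preferring the APPRIS principal and then the longest coding sequence. Genes named are the 10 highest and 10 lowest by load, both ends of each family of 3 or more, all genes of families of 4 or fewer, the 10 most abundant, a list of kidney and other known factors, those with an SD over 1, and the 3 highest and lowest of the partner and homeobox lists; values per library are given for the 6 highest and 6 lowest calls of heavy over monosomes with at least 100 reads. Values of a few genes are not reported here. The symbol pattern reads no values, but it and the gene lists were proposed, and so the members and lists were chosen, with earlier results of these data known.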

Additional observations from a re-analysis of the deposited data

How the results depend on the processing

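No gene call changed direction in any alternative. With the replicate block, which pairs the fractions of a gradient, heavy over monosomes gave 13 higher and 41 lower against 13 and 39 without it, light over monosomes 7 and 22, and heavy over light polysomes 18 and 26. Of all genes 24.8% and 24.5%, 8.40% and 10.7%, and 15.5% and 18.3% were called with the block. Of 121 gene calls 1 was lost, that of FOXP4. Leaving out 1 replicate at a time gave 4 to 17 higher and 21 to 47 lower for heavy over monosomes, 2 to 15 and 10 to 27 for light over monosomes, 0 to 35 and 0 to 39 for heavy over light polysomes, and 3 to 21 and 26 to 44 for mean ribosome load. Calls over all genes moved as well. They were 9.99% to 31.4% higher and 14.7% to 30.0% lower for heavy over monosomes. For light over monosomes they were 1.17% to 17.3% and 3.25% to 18.1%. For heavy over light polysomes they were 0% to 29.9% and 0% to 30.2%, and for load 9.89% to 29.1% and 17.0% to 28.0%. The 0 calls of heavy over light polysomes by limma came without replicate 1, where 9 higher and 21 lower had an unadjusted p under 0.05, and without replicate 3, where 9 and 23 did. Without light polysome library 2, heavy over monosomes gave 22 higher and light over monosomes 15 higher of the 131. Of all genes 29.3% and 10.6% were then higher, so the shortfall of higher calls in light over monosomes was not seen without that library. The median of light over monosomes was -0.13, from -0.27 to -0.11 when 1 replicate was left out, and -0.081 without light polysome library 2. Centred on the mean gene instead of the median gene, load was higher for 17 and lower for 35 of the 131 genes, and for 3537 and 2713 of all genes against 2798 and 3139, with a median difference of -0.045 for the 131. The summed share of both polysome fractions gave 9 higher and 20 lower, where 2548 and 1470 of all 12720 genes were called. Of the 50 load calls, 20 were also made on the summed share, which added 9 other calls. Calls made under every alternative numbered 21 of 52 for heavy over monosomes, 11 of 28 for light over monosomes, 0 of 41 for heavy over light polysomes and 15 of 50 for load. With 3 gradients, small differences could not be detected. The causes of these shifts were not tested, apart from fewer samples when a replicate is left out.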
